A study of Homo sapiens with 9 samples.

Results

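The comparison set the 6 TRAM2 knockout libraries of both guides together against the 3 control libraries of the same MCF10A-YAP cells. It used all 9 libraries of the series, and the value of a gene was the mean of the TRAM2-KO1 and TRAM2-KO2 groups less the control group. Estimated reads were summed per gene, and all 15139 genes that passed a filter on low counts were tested. A gene lay on one side when each of the 6 knockout libraries was above, or each was below, all 3 controls. That held for 1384 genes, 9.14% of those tested.

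TRAM2 belongs to the translocon, the channel that takes nascent secretory proteins into the endoplasmic reticulum (ER). Collagens are among its best known clients. Inside the ER their chains are hydroxylated on proline and lysine, folded with the help of chaperones and disulfide isomerases, and trimerised before export. Epithelial cells lay down a basement membrane of laminins, collagen IV, nidogens and perlecan, to which they are held by integrins and hemidesmosomes. The study asked which transcripts change when TRAM2 is disrupted.

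MCF10A cells come from human breast epithelium and are immortal without being transformed. The MCF10A-YAP derivative used throughout overexpresses constitutively active YAP, the coactivator at the end of the Hippo pathway. All 3 groups therefore shared active YAP, transduction with a guide RNA (sgRNA) vector and the antibiotic selection that followed. Controls had a non-targeting sgRNA, and the TRAM2-KO1 and TRAM2-KO2 groups each had their own sgRNA against TRAM2. Each group held 3 libraries lettered A, B and C, which the series text calls biological replicates. How separately they were grown is not given in the sources used here, so the p-values measure the spread between these libraries, which may be technical. That text also names conditions with TRAM2 overexpression, which the sample labels do not, and groups were taken from the labels. The sources describe no cloning step after selection, and RNA of a transduced population does not separate edited from unedited cells. Here, as in any bulk sample, fewer cells of a kind and less RNA per cell cannot be told apart.

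The TRAM2-KO2 guide is shown because the comparison rests on where TRAM2 was cut. It was matched to GRCh37, the genome copy used here, and is printed 5′ to 3′ with the adjoining PAM, the motif that Cas9 needs, in capitals.
TRAM2-KO2: gtcaacagaatactcacgggAGG
The site lay on the plus strand of chromosome 6 at 52374309 to 52374328, with 3 of its 20 bases inside exon 5 (52374326 to 52374384) and the rest in the adjoining intron. TRAM2 itself is read from the minus strand.

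The libraries held 21.7 to 27.6 M estimated reads. A gene could be assigned to 98.4% to 98.5% of them, and the biological coefficient of variation was 5.86%. TRAM2-KO1 B and C stood apart from the other libraries in GC-rich genes. Over 425 genes of at least 65% GC, the median deviation from the gene's mean over all libraries was -0.462 in TRAM2-KO1 B and -0.236 in TRAM2-KO1 C on the log2 scale, against -0.031 to 0.173 in the other 7 libraries. The median GC content was 53.5% for the genes called down and 47.6% for all genes. Values with TRAM2-KO1 represented by library A alone, or after removal of each library's GC trend, are therefore given for some of the results they change, not for all.

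Levels were read in CPM, the counts of a gene per M reads of its library after scaling between libraries. Calling a gene took both an adjusted p under 0.05 and a log2 fold change beyond 0.5 in either direction. With both guides together 55 genes were called, 0.363% of those tested. Of these 21 were up (0.139%) and 34 were down (0.225%). DESeq2 called 51 genes, 14 up and 37 down, of which 39 were among the 55. With no limit on size, 595 genes passed (3.93%), 221 of them up (1.46%) and 374 down (2.47%), against 43 up and 128 down with transcript length offsets. Genes described below as changed that did not pass with those offsets included ITGA1, LAMA3, KLF6, MRC2, KRT13, SERPINA3, DUSP5, C3 and TGFB2. Also among them were KIF20A, STT3B, S100P, KRT17, PKIB, CCN2, BTG2, CENPS-CORT, COL6A1, PTGDS, LANCL3, LRAT and IFI44L. Changes were mostly small: 200 of the genes that rose and 340 of those that fell stayed within 0.5, and the median log2 fold change was 0.192 among the former 221 and -0.281 among the 374. The median over all genes was -0.003. With TRAM2-KO1 by library A alone, 58 genes were called and 37 of them were among the 55. With TRAM2-KO1 A left out instead, the count was 104, which included all 55.

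Of the 55 called genes, 18 up and 33 down also had all 6 knockout libraries on one side. The 3 exceptions among the genes up overlapped by TRAM2-KO1 C alone. KRT16 reached 11.3 CPM in TRAM2-KO1 C against 12.1 in the highest control, S100P 7.12 CPM against 7.17, and LRAT 2.33 CPM against 2.49. Just inside the border was CLDN1, with 11.5 CPM in TRAM2-KO1 C and 11.2 in the highest control. The fourth gene that overlapped is known only by an identifier and had no reads in any TRAM2-KO2 library. Over all genes, 670 had all knockout libraries above all controls (4.43%) and 714 had them below (4.72%), but 485 and 359 of these did not pass the test, and the median absolute log2 fold change was 0.137 over the 670 and 0.241 over the 714.

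TRAM2 (ENSG00000065308, GRCh37 chromosome 6, 52362206 to 52441858) was the gene aimed at. It stood at 481, 464 and 475 CPM in the controls, at 219, 210 and 203 CPM with TRAM2-KO1 and at 216, 212 and 211 CPM with TRAM2-KO2. The groups were far apart, and both guides left the same band of levels. Together they lowered TRAM2 mRNA by 55.3%, a log2 fold change of -1.16 (SE 0.0268, 95% interval -1.22 to -1.10, adjusted p = 1.95e-10). By p-value it led all genes of the comparison.

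Of 19 basement membrane genes measured, 9 fell, 0 rose and 10 did not pass, beside 2.47% down and 1.46% up of all genes. The median log2 fold change was -0.37. All knockout libraries were below all controls for 12 of the 19 and above them for 2, beside 4.72% and 4.43% of all genes. COL4A1 and COL4A2 code for the 2 chains of the common collagen IV network. COL4A1 (chromosome 13, 110801310 to 110959504) stood at 586, 585 and 583 CPM in controls, at 366, 339 and 362 CPM with TRAM2-KO1 and at 386, 392 and 388 CPM with TRAM2-KO2. No knockout library came near a control, and the fold change was -0.65 (SE 0.0261, adjusted p = 2.61e-08). COL4A2 (110958159 to 111165556) went from 891 to 926 CPM in controls to 454 to 596 CPM with TRAM2-KO1 and 595 to 624 CPM with TRAM2-KO2, a change of -0.68 (SE 0.0724, adjusted p = 0.00148). Its lowest value was in TRAM2-KO1 B.

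These neighbours are read in opposite directions from a shared stretch of promoter. Because the pair moved together, the 126 bases between their RefSeq start sites are given, on the plus strand of GRCh38.p14 at chr13:110307158-110307283, with a GC content of 80.2%.
COL4A1-COL4A2: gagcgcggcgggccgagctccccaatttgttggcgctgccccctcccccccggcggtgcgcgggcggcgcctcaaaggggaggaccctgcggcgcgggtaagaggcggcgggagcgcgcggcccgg
COL4A2 continues to the right of it, and COL4A1 to the left on the other strand.

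The rarer collagen IV chains moved less. COL4A4 changed by -0.40 (adjusted p = 1.19e-05), COL4A5 by -0.31 and COL4A3 by -0.28, and all 6 knockout libraries were lower for each, while COL4A6 had -0.09 (adjusted p = 0.527). PXDN, the peroxidasin that crosslinks collagen IV, went from 447 to 457 CPM in controls to 253 to 290 CPM with TRAM2-KO1 and 307 to 321 CPM with TRAM2-KO2. That was a change of -0.62 (SE 0.038, adjusted p = 1.77e-06). NID2, a nidogen that bridges laminin and collagen IV, had 23.1 to 25 CPM in controls and 15.2 to 18.5 CPM in the knockouts, a change of -0.54 (adjusted p = 0.000216). With transcript length offsets NID2 no longer passed. The laminin genes LAMC1 and LAMB1 fell by 25.8% and 19.6%.

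For some basement membrane genes the libraries were too uneven for a call. HSPG2, which encodes perlecan, had 114 to 141 CPM in controls and 58.1 to 104 CPM in the knockouts, with a fold change of -0.57 (SE 0.147, adjusted p = 0.109). AGRN, the agrin gene, had -0.52 (adjusted p = 0.186), and its lowest library was TRAM2-KO1 B at 138 CPM. LAMA5 overlapped, with 140 CPM in TRAM2-KO1 B and 326 CPM in TRAM2-KO2 B. With TRAM2-KO1 by library A alone the group still had 9 genes down and 0 up, at a median of -0.32, and with the GC trend removed it had 10 down and 1 up.

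**Figure D1:**
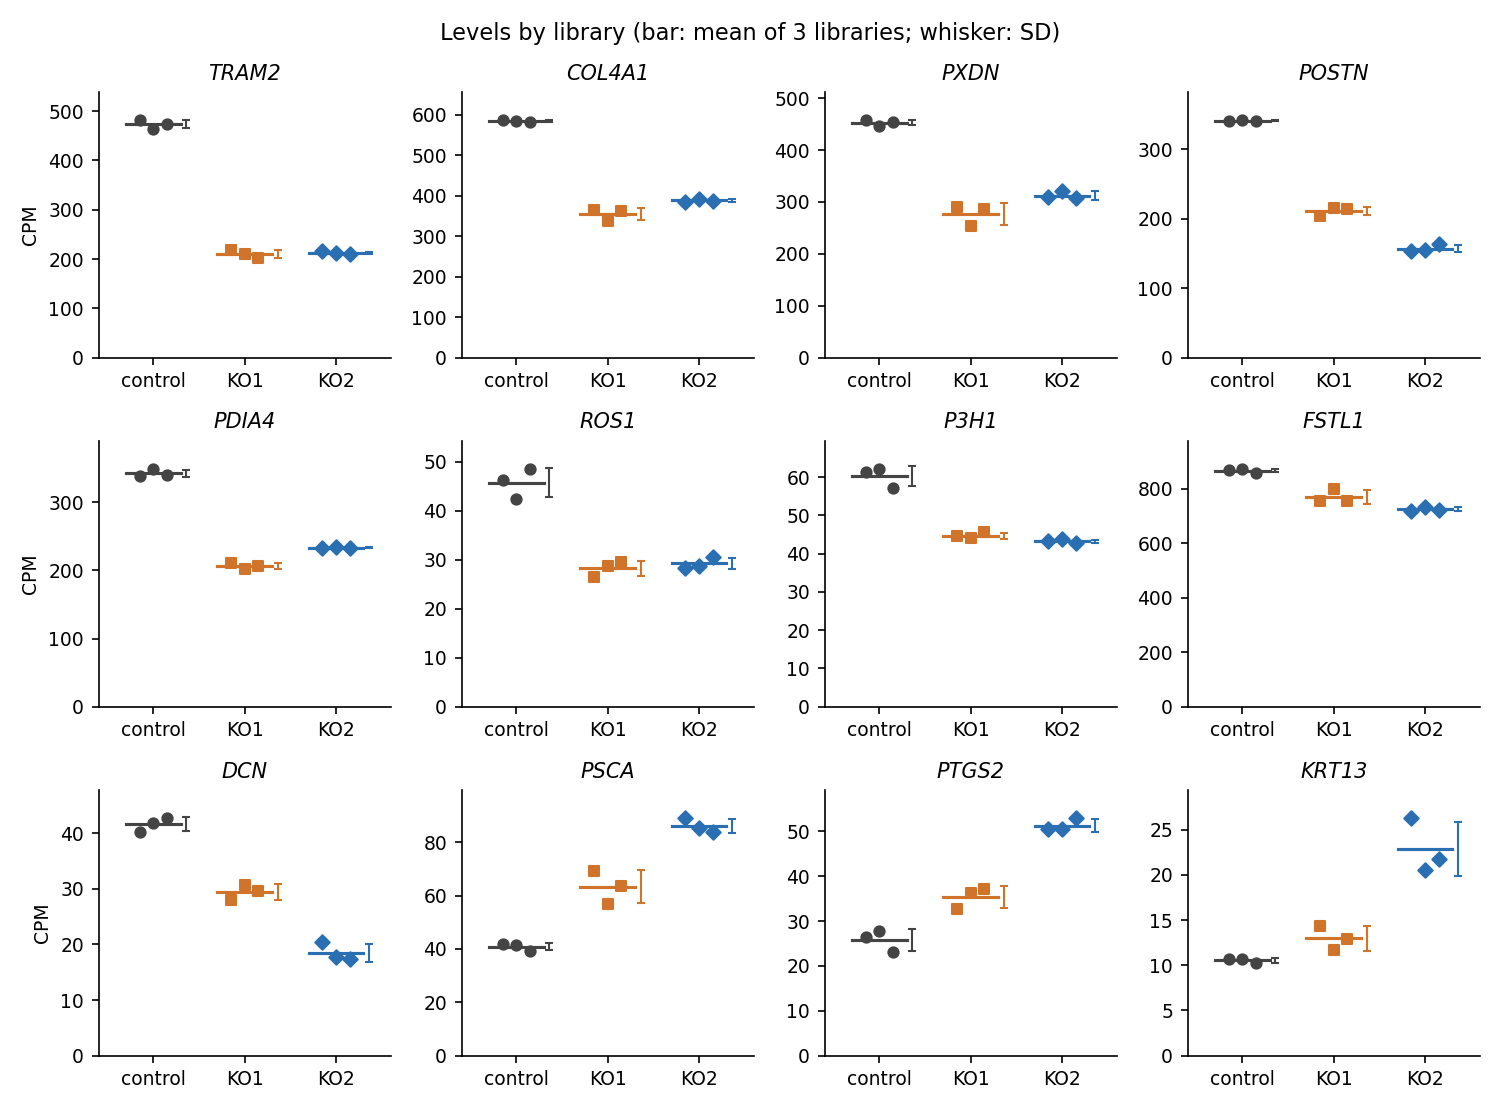
Levels of 12 genes in CPM (linear axis from 0) for the 3 control, 3 TRAM2-KO1 and 3 TRAM2-KO2 libraries, with 1 point per library, the group mean as a bar and its SD as a whisker. In all 12 panels the 6 knockout libraries lie on one side of the controls, from TRAM2 at about the same level with both guides to DCN, PTGS2 and KRT13 with unlike levels.

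Collagen chains outside the basement membrane were fewer and lower. Of 13 measured, 4 fell and 0 rose, with a median of -0.29. COL5A3, a minor fibrillar chain, had the most negative change among called genes with a symbol, from 2.57, 2.46 and 1.97 CPM in controls to 0.416 to 0.995 CPM with TRAM2-KO1 and 0.635 to 0.949 CPM with TRAM2-KO2. The groups did not overlap, but the level was so low that the fold change of -1.59 carried an SE of 0.224 (adjusted p = 0.00107), and DESeq2 gave it no adjusted p. The microfibril collagen VI had 2 chains called, COL6A3 at -0.58 (SE 0.0872, adjusted p = 0.00584) and COL6A1 at -0.57 (SE 0.102, adjusted p = 0.0202). With TRAM2-KO1 by library A alone COL6A3 did not pass (adjusted p = 0.0995) and COL6A1 had -0.44, and without control A, B or C the adjusted p of COL6A1 was 0.101, 0.0991 or 0.0764. COL8A1, a short-chain collagen of matrix networks, changed from 483 to 488 CPM in controls to 354 to 384 CPM over the knockouts, at -0.39 (SE 0.0205, adjusted p = 4.97e-07). With transcript length offsets it had -0.26 (adjusted p = 0.375). COL1A1, a chain of collagen I, was at or below 1.16 CPM in every library.

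Enzymes that modify collagen fell broadly: 15 of 28 measured fell, 1 rose, and the median was -0.26. P3H1, the ER prolyl 3-hydroxylase followed by the study as a protein, stood at 61.4, 62.0 and 57.2 CPM in controls, at 44.6, 44 and 45.6 CPM with TRAM2-KO1 and at 43.2, 43.7 and 42.9 CPM with TRAM2-KO2. All 6 knockout libraries lay in a narrow band below the controls. The decrease was 26.9%, a log2 fold change of -0.45 (SE 0.0358, 95% interval -0.53 to -0.37, adjusted p = 1e-05), short of the size for a call. Its partners in the 3-hydroxylation complex, CRTAP and PPIB, had -0.05 and -0.02 and did not pass.

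The lysyl hydroxylases PLOD2 and PLOD1 prepare collagen for crosslinking. PLOD2 went from 1277 to 1298 CPM in controls to 952 to 1008 CPM with TRAM2-KO1 and 862 to 912 CPM with TRAM2-KO2 (-0.46, SE 0.0254, adjusted p = 5.77e-07), and PLOD1 changed by -0.44 (adjusted p = 4.46e-06). FKBP9, an ER prolyl isomerase, fell by 23.0% and LOX, the secreted lysyl oxidase, by 20.5%. The procollagen proteinase gene BMP1 had -0.49, the oxidase gene LOXL2 -0.44, the collagen chaperone gene SERPINH1 (HSP47) -0.29 and the prolyl 4-hydroxylase gene P4HA1 -0.25, and all of them fell. The exception in the upward direction was FKBP14, another ER prolyl isomerase, at 0.25 (adjusted p = 0.00108). The group was nearly the same with TRAM2-KO1 by library A alone, at 14 down and 1 up.

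Among resident chaperones and disulfide isomerases of the ER, 12 of 24 measured fell by mostly small amounts and 0 rose, at a median of -0.17, and 13 were lower in all 6 knockout libraries. PDIA4, a disulfide isomerase, stood out with 339, 348 and 341 CPM in controls, 211, 202 and 206 CPM with TRAM2-KO1 and 233, 234 and 233 CPM with TRAM2-KO2. It fell by 35.9% (log2 -0.64, SE 0.0234, adjusted p = 1.15e-08) and was the only member past 0.5. HYOU1, a nucleotide exchange factor of the ER, fell by 25.2%. HSP90B1, the ER paralog of HSP90, fell by 19.3%, and TXNDC5, a further disulfide isomerase, by 16.7%. HSPA5 (BiP), the ER HSP70, went from 648 to 673 CPM in controls to 547 to 590 CPM in the knockouts, at -0.23 (SE 0.0224, adjusted p = 5.38e-05), and the lectin chaperone gene CALR had -0.26.

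Genes of the unfolded protein response and of ER-associated degradation (ERAD) did not follow as a block. Among 19 measured, 4 fell, 1 rose and the median was -0.02. The genes that fell were EDEM3 at -0.29, SEL1L at -0.29, OS9 at -0.24, which all serve degradation, and the transcription factor gene CREB3L2 at -0.14. PPP1R15A, a phosphatase subunit that reverses the stress block on translation, rose at 0.25 (adjusted p = 0.00954). The stress reporters XBP1, DDIT3, HERPUD1 and ATF4 had 0.14, 0.08, 0.05 and 0.04, none of them past the test. With transcript length offsets 0 of the 19 genes passed.

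HSPA5 and HSP90B1 each hold a match to the ER stress response element (ERSE) in the 250 bases before their RefSeq start sites. Both are printed on the strand of the gene (GRCh38.p14, HSPA5 minus strand at chr9:125241344-125241593, HSP90B1 plus strand at chr12:103930160-103930409), with every match to CCAAT, any 9 bases and CCACG on either strand in capitals. They are shown because the element is the best known control sequence of this gene group.
HSPA5: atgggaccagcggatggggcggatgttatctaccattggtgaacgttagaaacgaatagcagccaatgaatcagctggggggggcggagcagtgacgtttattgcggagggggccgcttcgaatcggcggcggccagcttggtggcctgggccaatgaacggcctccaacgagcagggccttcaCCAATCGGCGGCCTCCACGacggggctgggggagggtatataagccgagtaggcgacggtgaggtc
HSP90B1: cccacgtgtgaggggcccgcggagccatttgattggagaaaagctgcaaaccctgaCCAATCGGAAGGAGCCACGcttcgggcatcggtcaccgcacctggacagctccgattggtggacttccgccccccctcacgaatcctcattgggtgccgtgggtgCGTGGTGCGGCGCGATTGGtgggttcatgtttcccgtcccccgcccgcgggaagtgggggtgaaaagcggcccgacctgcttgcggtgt
Of 10907 tested genes with a promoter in the table, 14 held such a match (0.128%). In the chaperone group it was 3 of 11 genes that fell (CALR, HSP90B1 and HSPA5) and 3 of 12 that did not pass (CANX, CRELD2 and ERO1B).

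Apart from TRAM2, the translocon and targeting machinery showed little change. Of 36 measured genes 3 fell and 2 rose, at a median of 0.02. SEC61A1, the channel subunit, had 0.00 and TRAM1, the paralog of TRAM2, had 0.07 (SE 0.0271, adjusted p = 0.272), with 618 to 634 CPM in controls, 663 to 715 CPM with TRAM2-KO1 and 606 to 626 CPM with TRAM2-KO2. Besides TRAM2, the oligosaccharyltransferase genes STT3B and RPN1 fell, at -0.12 and -0.10. TUSC3, an accessory oligosaccharyltransferase subunit, rose at 0.23 (SE 0.0305, adjusted p = 0.000704), from 159 to 162 CPM to 182 to 201 CPM.

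MAGT1, the paralog of TUSC3 in the same enzyme, had the largest fold change of the table, and it came with lower reads on another transcript. It had 0.0408, 0.041 and 0.123 CPM in controls, 25.5, 30.4 and 22.8 CPM with TRAM2-KO1 and 6.46, 34.2 and 35.6 CPM with TRAM2-KO2 (log2 8.46, SE 1.27, adjusted p = 0.0185). A second transcript of nearly the same length (4019 against 4047 bases), which the annotation used here assigns to no gene, moved the other way: it took 94.4 to 100.3 reads per M deposited reads (RPM) in controls and 72.0 to 95.4 in the knockouts. Its highest knockout value was in TRAM2-KO2 A, where MAGT1 was lowest. The sum of the main MAGT1 transcript and this one was 94.4 to 100.3 RPM in controls and 102 to 112 RPM in the knockouts, where every library was above the controls. How far the division of reads between the 2 transcripts set the rise of MAGT1 was not tested. Without control A, B or C its log2 fold change was 8.21, 8.21 or 9.13 and its adjusted p 0.103, 0.105 or 0.0984.

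Matrix glycoproteins and proteoglycans had the largest share of genes that fell. Of 29 measured, 19 fell and 0 rose, at a median of -0.33, and 21 were lower in all 6 knockout libraries. POSTN encodes periostin, a matricellular protein that binds collagen. It stood at 340, 341 and 341 CPM in controls, at 204, 215 and 214 CPM with TRAM2-KO1 and at 153, 155 and 163 CPM with TRAM2-KO2. Controls were almost identical, the guides formed separate steps below them, and the mean change was -0.90 (SE 0.0276, adjusted p = 2.76e-09). DCN, the collagen-binding proteoglycan decorin, had the same stepped form with 40.2 to 42.7, 28.0 to 30.7 and 17.4 to 20.4 CPM, at -0.83 (SE 0.0536, adjusted p = 2.14e-06).

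Also called were LTBP3, a latent TGF-beta binding protein gene, at -0.57, and VCAN, the large proteoglycan versican, at -0.51. VCAN was not called without control C, nor LTBP3 with TRAM2-KO1 by library A alone. FN1, fibronectin, was the most abundant gene of the group, with 32840 to 37410 CPM in controls and 23550 to 28710 CPM in the knockouts, and fell by 25.7% (adjusted p = 0.0065). THBS1, thrombospondin, fell by 19.8% and TGFBI, an adhesion protein gene, by 18.1%. FSTL1, the secreted glycoprotein that the study also followed, stood at 870, 871 and 859 CPM in controls, at 754, 800 and 755 CPM with TRAM2-KO1 and at 720, 734 and 723 CPM with TRAM2-KO2. All 6 knockout libraries were lower, by 13.8% together (log2 -0.21, SE 0.0243, 95% interval -0.27 to -0.16, adjusted p = 0.000202). The change was short of the size for a call. From RNA-seq and qRT-PCR the study reported FSTL1 mRNA as unaltered by TRAM2 knockout, and its protein as lower. Its RNA-seq plots also marked genes only beyond 0.5.

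Integrins outside the hemidesmosome, the receptors for these proteins, fell in 7 of 11 cases and rose in 0, at a median of -0.37. ITGA5, of the fibronectin receptor, went from 183 to 186 CPM in controls to 127 to 141 CPM in the knockouts, at -0.48 (SE 0.0289, adjusted p = 1.02e-06). ITGA1, of a collagen receptor, changed by -0.48, ITGAV by -0.37 and the common beta chain gene ITGB1 by -0.24. ITGB6, of an epithelial integrin that activates TGF-beta, had 214 to 223 CPM in controls, 136 to 147 CPM with TRAM2-KO1 and 190 to 194 CPM with TRAM2-KO2, so its change of -0.41 came mostly from the first guide. The median GC content of this group was 40.2%, and with the GC trend removed its median was -0.40.

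Genes of the hemidesmosome and of laminin-332, its ligand, fell in 4 of 11 cases with 0 up, at a median of -0.24. ITGA3 fell by 26.4%, and ITGA6 and LAMA3 by 16.4% and 15.4%. COL17A1 and ITGB4 had means of 0.00 and -0.04, but for COL17A1 these hid opposite values, -0.22 with TRAM2-KO1 and 0.22 with TRAM2-KO2. The group median was -0.36 with the first guide and -0.07 with the second. In TRAM2-KO1 A, B and C the median level of the group relative to controls was -0.17, -0.57 and -0.344, an order shared with the deviation of GC-rich genes in those libraries, and the group's median GC content was 58.9%. The part of GC content in the values of single genes was not tested. With TRAM2-KO1 by library A alone the median of the group was -0.10, and with the GC trend removed it was -0.16, with 5 genes down in both.

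**Figure D2:**
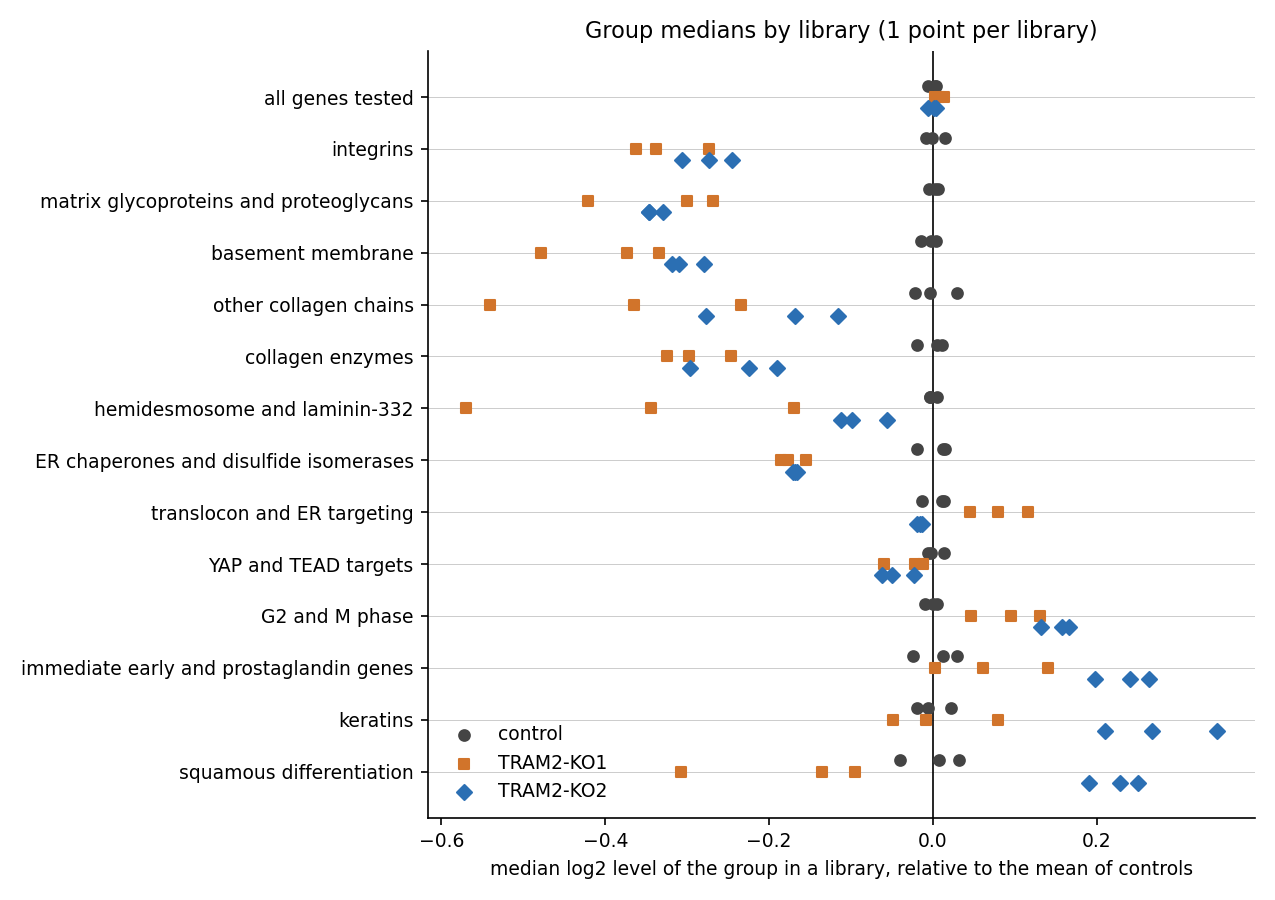
Median log2 level of 13 gene sets and of all genes tested in each of the 9 libraries, relative to the mean of the controls, with 1 point per library and colour by group. Matrix, collagen, integrin and ER chaperone sets lie left of the controls in all 6 knockout libraries, while keratins and squamous genes lie right of them in the TRAM2-KO2 libraries. In the TRAM2-KO1 libraries squamous genes lie left of the controls and keratins overlap them.

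Of 23 matrix proteases and inhibitors, 8 fell and 1 rose, at a median of -0.16. MMP14, a membrane-bound collagenase, went from 306 to 315 CPM in controls to 189 to 214 CPM with TRAM2-KO1 and 217 to 238 CPM with TRAM2-KO2 (-0.54, SE 0.0388, adjusted p = 4.72e-06). With the GC trend removed it fell just short of the size for a call and still passed the test. PLAT, tissue plasminogen activator, fell by 25.1%. SERPINB5 (maspin) rose at 0.19.

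Complement genes were mixed, with 3 of 13 down, 1 up and a median of -0.18. C1S, an initiating protease, was called at -1.13 (SE 0.185, adjusted p = 0.00339) from a level of 1.96 to 2.21 CPM in controls. DESeq2 gave it no adjusted p, and with transcript length offsets it did not pass (adjusted p = 0.133). CD59, which blocks the membrane attack complex, rose by 12.7%. C3 fell at -0.18, with -0.37 by the first guide and 0.02 by the second, and the guides differed (adjusted p = 6.96e-05).

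Further genes were called down outside these groups. ROS1, a receptor tyrosine kinase, had 46.2, 42.5 and 48.4 CPM in controls, 26.4, 28.6 and 29.5 CPM with TRAM2-KO1 and 28.3, 28.8 and 30.6 CPM with TRAM2-KO2. The guides gave like values, and the mean change was -0.67 (SE 0.0519, adjusted p = 8.53e-06). ALPP, a placental alkaline phosphatase that may share reads with its close paralogs, fell by 42.7%. SLIT3, a secreted guidance ligand, went from 13.7 to 15 CPM to 6.01 to 9.04 CPM in the knockouts (-0.996, SE 0.102, adjusted p = 9.19e-05), although it did not pass with transcript length offsets. CEMIP, which degrades hyaluronan, and MRC2, a receptor that takes up collagen, had -0.92 and -0.90 at 1.20 to 6.69 CPM over all libraries. SERPINA3, a secreted protease inhibitor, had -0.67. ECE1, which processes endothelin, changed from 186 CPM in each control to 114 to 136 CPM in the knockouts, at -0.54, and was not called with TRAM2-KO1 by library A alone or with the GC trend removed. CSF1, the macrophage growth factor, and ICAM1, a leukocyte adhesion molecule, both had -0.52, and ICAM1 did not pass without control B (adjusted p = 0.0556). CSF1 was called under 15 of 19 alternatives and ICAM1 under 12, neither of them with the GC trend removed, ICAM1 not with TRAM2-KO1 by library A alone, and CSF1 had -0.36 with transcript length offsets (adjusted p = 0.588). The remaining called genes PCDHB16, PTGDS, SCN8A, SEMA3B, AMPH, ST6GAL2 and IL27RA lay between -1.03 and -0.53, at levels of 0.474 to 15.6 CPM. PTGDS and AMPH were called under 6 of the 19 alternatives, SCN8A under 7 and SEMA3B under 12, and without control A, B or C the adjusted p of PTGDS was 0.109, 0.131 or 0.201.

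**Figure D3:**
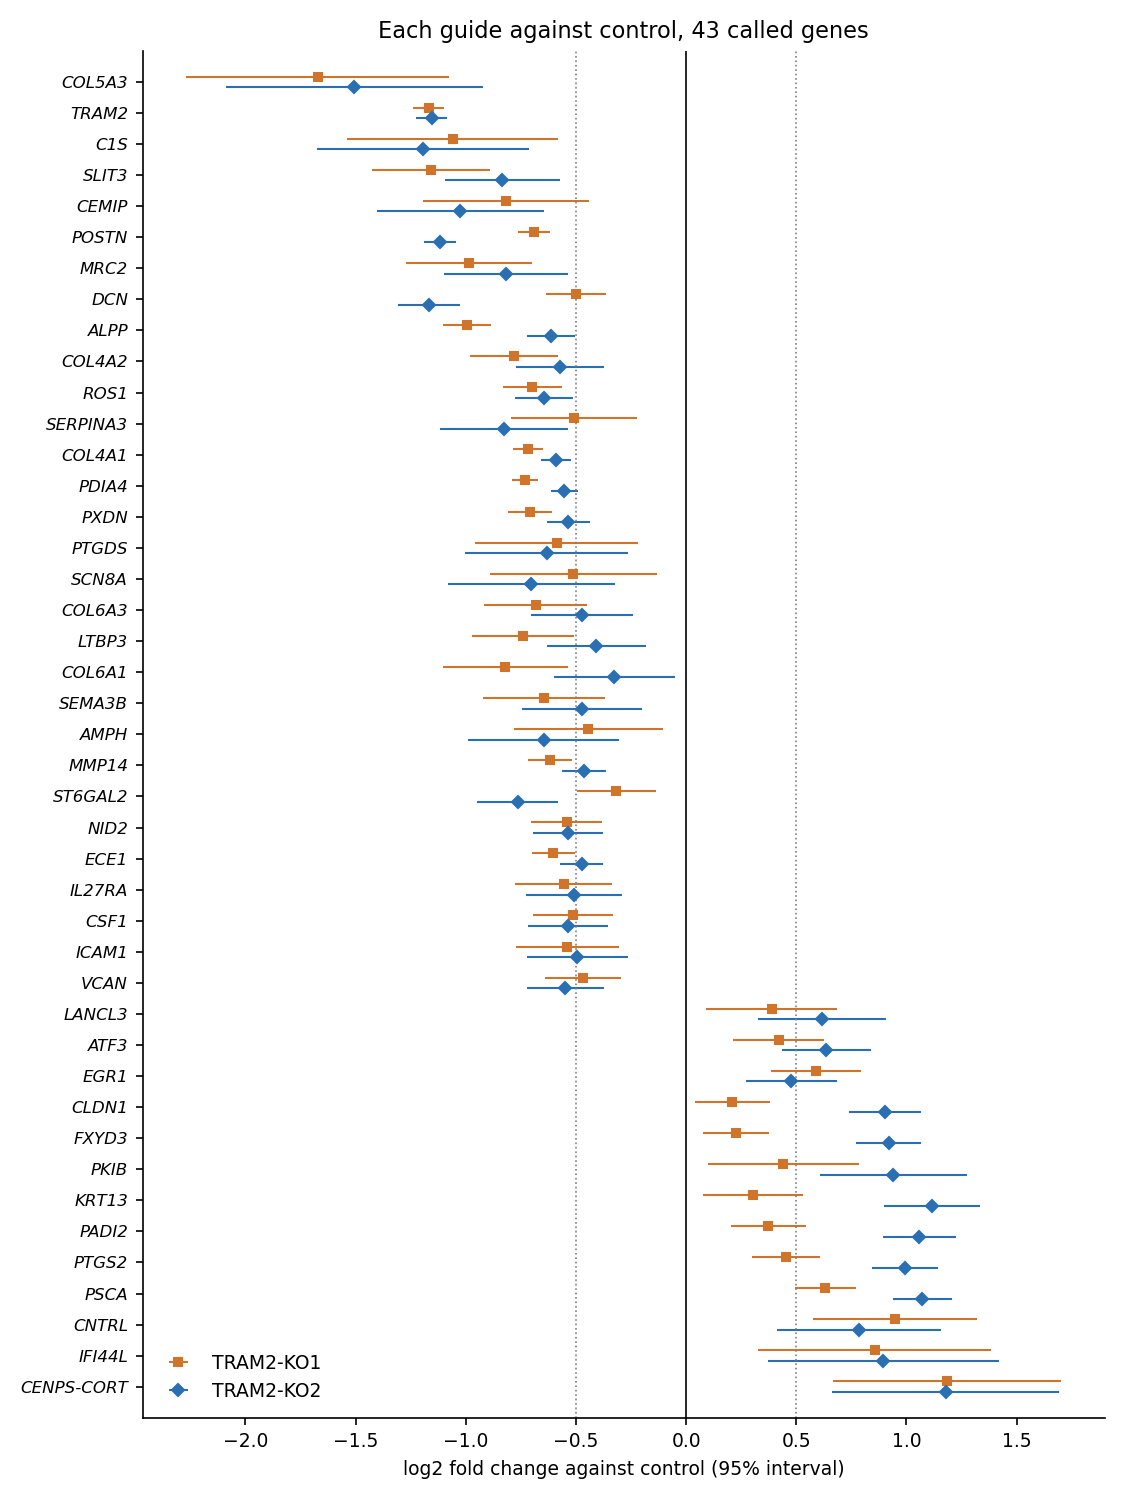
Log2 fold change of TRAM2-KO1 (squares) and TRAM2-KO2 (diamonds) against the same 3 controls, with 95% intervals, for 43 of the 46 called genes with at least 1 CPM and no overlap. All points of the 30 genes called down are left of 0 and all points of the 13 called up are right of it, and PTGS2, KRT13, PADI2, CLDN1 and FXYD3 lie farther out with TRAM2-KO2.

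Among genes called up, PSCA, a membrane-anchored surface antigen of epithelia, had the firmest change. It stood at 41.8, 41.6 and 39.2 CPM in controls, at 69.3, 57.0 and 63.6 CPM with TRAM2-KO1 and at 88.9, 85.3 and 83.8 CPM with TRAM2-KO2. Controls, first guide and second guide formed ascending levels without overlap, and the mean rise was 80.6% (log2 0.85, SE 0.0556, adjusted p = 3.07e-06). PTGS2, the inducible cyclooxygenase that makes prostaglandins, had 23.1 to 27.8, 32.6 to 37.2 and 50.5 to 52.9 CPM in the same order, at 0.72 (SE 0.0617, adjusted p = 1.79e-05).

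Immediate early and prostaglandin genes rose in 10 of 30 cases, beside 1.46% of all genes, and fell in 1, at a median of 0.15. That median was 0.04 with TRAM2-KO1, where library B lay among the controls, and 0.24 with TRAM2-KO2. EGR1, an early response transcription factor gene, went from 63.7 to 67.0 CPM in controls to 85.2 to 108 CPM with TRAM2-KO1 and 84.6 to 99.2 CPM with TRAM2-KO2 (0.53, SE 0.0794, adjusted p = 0.0059), and the difference between the guides did not pass (adjusted p = 0.527). Without control A its adjusted p was 0.06. ATF3, a stress-induced factor, rose at 0.53 from 7.09 to 8.49 CPM to 9.65 to 12.7 CPM, and without control C it had 0.47. KLF6, another such factor, rose by 16.6% and DUSP5, a nuclear ERK phosphatase, by 19.6%. PTGER4, a prostaglandin E2 receptor, had 0.35, and PTGES, a prostaglandin E synthase, 0.18, and both rose. DUSP1 fell at -0.20. FOS, JUN and FOSL1, components of AP-1, had -0.03, -0.01 and -0.01 and did not pass.

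Keratins rose in 7 of 17 cases and fell in 0, at a median of 0.13, but the guides were far from alike. KRT13, a mucosal keratin, had 10.7, 10.7 and 10.2 CPM in controls, 14.4, 11.6 and 12.9 CPM with TRAM2-KO1 and 26.3, 20.6 and 21.7 CPM with TRAM2-KO2, a mean change of 0.71 (SE 0.0907, adjusted p = 0.000501). KRT16, a wound-induced keratin, changed by 0.56 and KRT15, a basal keratin, by 0.48, with 0.06 by the first guide and 0.90 by the second. The median of the group was 0.00 with TRAM2-KO1 and 0.27 with TRAM2-KO2, and paralogous keratins may share reads. With both guides fitted as one group, so that the spread between guides entered the error, 0 of the 17 keratins passed. KRT5, the main basal keratin here, had 0.02.

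The same step between the guides was seen in other epithelial genes. PADI2, a peptidylarginine deiminase, had 6.60 to 6.68, 8.47 to 8.78 and 13.0 to 14.7 CPM (0.72, SE 0.0682, adjusted p = 4.98e-05), and FXYD3, a regulator of the sodium pump, 24.8 to 28.0, 29.8 to 34.0 and 47.3 to 53 CPM (0.57). CLDN1, a tight junction claudin, had 9.96 to 11.2, 11.5 to 13.1 and 18.8 to 20.8 CPM, at 0.56 (SE 0.0673, adjusted p = 0.000315). Squamous differentiation genes numbered 3 up and 0 down of 19, with SLPI, a secreted protease inhibitor, at 0.37 and a median of 0.04. That median joined opposite values, -0.147 with TRAM2-KO1, where all 3 libraries were below the controls, and 0.187 with TRAM2-KO2, where all 3 were above. Adherens and tight junction genes numbered 2 up and 1 down of 23, beside 1.46% and 2.47% of all genes, at a median of 0.07. Here too the guides were opposite, at -0.033 with TRAM2-KO1, its libraries below the controls, and 0.141 with TRAM2-KO2, its libraries above them. In the desmosome 3 of 10 rose and 1 fell, with DSG3, a desmosomal cadherin, at 0.45 and PERP at 0.25. S100P, a calcium-binding protein gene, had 0.62 and overlapped the controls in TRAM2-KO1 C.

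**Figure D4:**
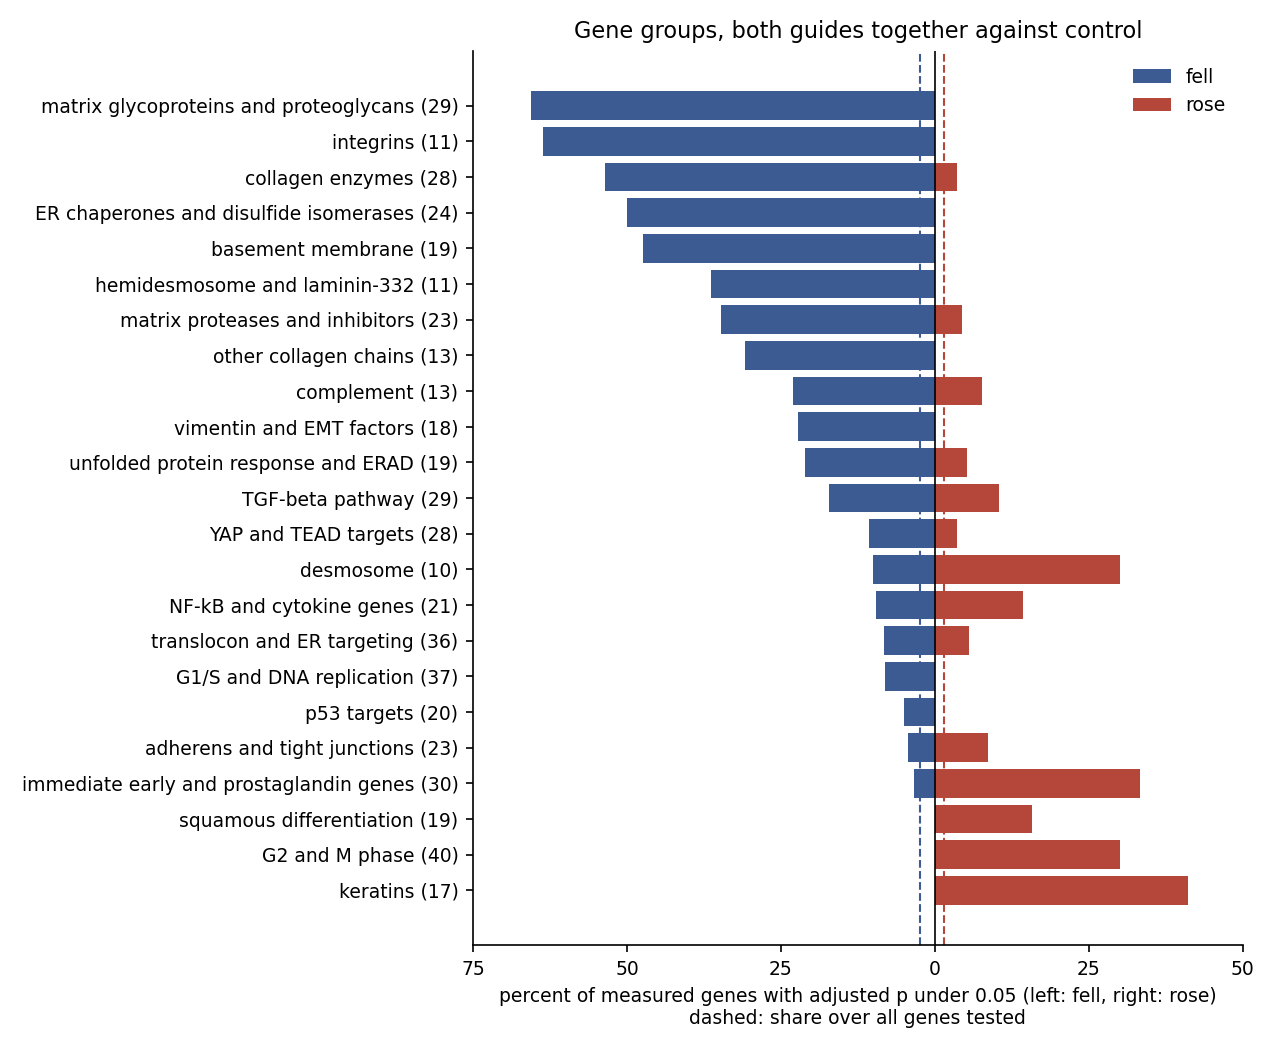
Percent of the measured genes of 23 groups (their number in parentheses) that fell, to the left, or rose, to the right, at an adjusted p under 0.05 with both guides together, with the shares over all genes tested, 2.47% down and 1.46% up, as dashed lines. Matrix glycoproteins with 19 of 29 and integrins with 7 of 11 lead the side of genes that fell, and keratins with 7 of 17 the side of genes that rose.

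Cell cycle genes changed by small amounts. Of 40 genes of the G2 and M phases, 12 rose, beside 1.46% of all genes, 0 fell and the median was 0.12. In all 6 knockout libraries 21 of the 40 were higher, beside 4.43% of all genes. CCNB1, cyclin B1, had 146, 148 and 147 CPM in controls, 162, 180 and 167 CPM with TRAM2-KO1 and 190, 188 and 184 CPM with TRAM2-KO2, a rise of 21.4% (log2 0.28, SE 0.0332, adjusted p = 0.000273). AURKA, a mitotic kinase, rose by 17.4% and KIF20A, a kinesin of cytokinesis, by 13.6%. Of 37 genes for DNA replication and entry into S phase, 3 fell, beside 2.47% of all genes, and 0 rose, at a median of -0.06. The 3 were CLSPN at -0.18, MCM5 at -0.17 and E2F8 at -0.21 (adjusted p = 0.0492). All 6 knockout libraries were lower for 6 of the 37, beside 4.72% of all genes. The median of these 37 overlapped the controls in TRAM2-KO1 B, none of the 3 genes passed with transcript length offsets, and MCM5 and E2F8 did not pass with both guides as one group. The count of G2 and M phase genes that rose depended on the fit, from 2 with transcript length offsets, or without control A, to 23 without TRAM2-KO1 A.

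Most known targets of YAP and its DNA-binding partner TEAD did not pass. Of 28, 3 fell and 1 rose, beside 2.47% and 1.46% of all genes, at a median of -0.03. All 6 knockout libraries were lower for 5 of the 28, beside 4.72% of all genes. The group median was -0.006 to 0.013 in controls and -0.062 to -0.012 in the knockouts, below every control. CCN1 and ANKRD1, among the best known of them, had -0.06 and 0.05 and did not pass, although ANKRD1 had 0.21 with TRAM2-KO1 (adjusted p = 0.0055) and -0.11 with TRAM2-KO2. CCN2 rose at 0.14, while CRIM1 and NT5E fell at -0.36 and -0.31. The TEAD motif GGAATG was found on either strand in the 250 upstream bases of 0 of 26 called-down genes with a promoter in the table, 1 of 15 called-up genes (UPK1B) and 9.48% of all 10907. The AP-1 motif TGACTCA was in 1 of the 26 (POSTN), 0 of the 15 and 2.68% of all.

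In the other gene groups most genes did not pass. Over all genes tested, 2.47% fell and 1.46% rose. Genes of the TGF-beta pathway had 5 down and 3 up of 29 and a median of 0.02, with TGFBR2, the type II receptor, at 0.23 and TGFB2 down by 13.0%. Vimentin and factors of the epithelial-mesenchymal transition had 4 down and 0 up of 18. VIM itself went from 521 to 539 CPM to 488 to 510 CPM with TRAM2-KO1 and 394 to 409 CPM with TRAM2-KO2, and with both guides as one group 0 of the 18 passed. NF-kB and cytokine genes had 3 up, with NFKBIA, the feedback inhibitor, at 0.45, and 2 down of 21, at a median of 0.14. NFKBIA had 0.22 with TRAM2-KO1 and 0.68 with TRAM2-KO2, and did not pass with both guides as one group (adjusted p = 0.219). The genes that fell were the called CSF1 and ICAM1. Of 20 p53 targets only BTG2 passed, at -0.23, and CDKN1A had -0.09 (adjusted p = 0.109). The 6 enhancer target genes that the study had chosen included TRAM2, and none of the others passed in the main fit: MYC had -0.09, CCND1 0.05, SLC39A1 0.07, TMEM158 0.09 and KIF18A 0.15. MYC passed with the GC trend removed, at -0.09 (adjusted p = 0.047). SLC39A1 passed when a replicate block was added to that, at 0.11 (adjusted p = 0.0309). Without TRAM2-KO1 A, KIF18A passed at 0.17 (adjusted p = 0.0406).

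Where the guides differed, the mean stands for unlike changes. Over all genes 380 (2.51%) differed between TRAM2-KO2 and TRAM2-KO1 at an adjusted p under 0.05, and of the 55 called genes 16 did, 8 up and 8 down. No called gene had opposite signs with the 2 guides. Values farther from control with TRAM2-KO2 were seen in 14 of the 21 genes called up and 14 of the 34 called down. ALPP and PDIA4 changed more with TRAM2-KO1, and DCN, POSTN and ST6GAL2 more with TRAM2-KO2. With both guides fitted as one group, 38 genes were called, 36 of them among the 55, and DCN, PTGS2, PADI2, FXYD3, CLDN1, KRT13 and KRT16 were no longer called.

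Some called genes rest on few reads or on shared sequence. CNTRL, a centriole gene, rose from 8.44 to 11.6 CPM to 13.5 to 20.8 CPM, but it did not pass without control B (adjusted p = 0.0534) or with TRAM2-KO1 by library A alone. CENPS-CORT, a transcript that reads through from CENPS into its neighbour, had 0.979 to 2.13 CPM in controls and 2.99 to 3.36 CPM in the knockouts, and reads of CENPS cannot be fully told from it. UPK1B, RBPMS-AS1, KRT8P36 and NBPF2P were called up at a mean under 1 CPM. RBPMS-AS1 lies antisense to RBPMS, and whether strand was used in counting is not given in the sources used here, while KRT8P36 is a pseudogene that can take reads of KRT8. IFI44L, an interferon-induced gene, had 0.88 at 0.492 to 1.39 CPM, PKIB, an inhibitor of protein kinase A, 0.69 at 1.31 to 2.88 CPM, and LANCL3 and LRAT 0.50 and 0.56 at 2.33 to 4.22 CPM and 1.76 to 4.01 CPM. LANCL3 was called under 3 of 19 alternatives and LRAT, IFI44L and RBPMS-AS1 under 6, and LANCL3, LRAT and IFI44L did not pass when any 1 control was left out.

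The libraries were checked against cell type markers. Of 10 markers of basal mammary epithelium 9 were measured, among them KRT5 at 1038 to 1264 CPM, while TP63 stayed at or under 0.111 RPM. The 9 genes together had 7124 to 7219 CPM in controls and 5493 to 6572 CPM in the knockouts, with ITGA6 among the 4 that fell and KRT17 the 1 that rose. Of 11 luminal markers 8 were measured, KRT8 and KRT18 foremost, and none passed, with PGR and KIT at 0. Of 10 fibroblast markers 4 were measured, FAP at 115 to 139 RPM making up most of their sum of 117 to 145 CPM, and FAP fell by 12.4%. COL1A2, COL3A1, PDGFRA, THY1, DPT and PI16 were all at or under 0.42 RPM. Endothelial and leukocyte lists had 2 measured members each and none passed, and CLDN5, ERG and CD3E were at 0.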

How the data were processed

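Poly(A) RNA of 9 MCF10A-YAP libraries was analysed. Reads were trimmed with cutadapt and quantified with Salmon by the authors, whose deposited files hold estimated counts, TPM and effective lengths per transcript. For the tool versions, genome build and transcript release: not given in the sources used here. Estimated counts were summed per gene by transcript identifier (GENCODE v44lift37, GRCh37; 97.48% of 226030 transcripts matched) and rounded. TPM, as deposited, served as a background level of each gene and as the weight of each transcript's effective length in the transcript length offsets.

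Genes were filtered with filterByExpr (minimum count 10), scaled by TMM and tested in edgeR 4.0.16 (R 4.3.3) by the quasi-likelihood F test with robust dispersion over the 3 groups, with the contrast of the mean of TRAM2-KO1 and TRAM2-KO2 less control. P-values were adjusted by Benjamini-Hochberg over all 15139 genes. Genes were called at an adjusted p under 0.05 and a log2 fold change beyond 0.5, and rose or fell in the text means an adjusted p under 0.05 at any size. List levels per library used log2(CPM + 0.05). Promoters were RefSeq, GRCh38.p14. Intervals cover 95%.

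Named genes were TRAM2, FSTL1, P3H1, 6 enhancer targets of the study, the 15 most changed called genes per direction with a mean of at least 1 CPM and no overlap, the 6 most abundant of these per direction, the 5 with the smallest and the 5 with the largest p between guides, up to 4 members per list with the smallest p, and up to 5 called genes that overlap. Other genes named were chosen after their values were seen. The comparison and the gene lists were chosen with earlier results of these data known. Representing TRAM2-KO1 by library A alone was an alternative chosen after seeing the data. Others were DESeq2 1.42.0, RLE size factors, other filters, both guides as one group, a replicate block, removal of each library's GC trend, transcript length offsets and leaving out each library. On simulated counts of 14889 genes for this comparison, 50.7%, 68.7% and 92.4% of genes changed by 0.3, 0.5 and 1 on the log2 scale were recovered. Recovery meant an adjusted p under 0.05 at any size, which 14 unchanged genes also reached. Both guides were given the same change there, unlike in the data. Some genes and 1 guide sequence are not reported here.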

Additional observations from a re-analysis of the deposited data

Results flagged for a closer look

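The guides differed, by the test of TRAM2-KO2 less TRAM2-KO1 adjusted over all genes, for 13 of the 114 genes examined that were also called with both guides together. Among genes called up, the log2 difference was 0.85 for KRT16, 0.81 for KRT13, 0.69 each for CLDN1, FXYD3 and PADI2, 0.59 for S100P, 0.54 for PTGS2 and 0.44 for PSCA, all higher with TRAM2-KO2. Among genes called down, it was -0.66 for DCN, -0.45 for ST6GAL2 and -0.43 for POSTN, which were lower with TRAM2-KO2. It was 0.38 for ALPP and 0.18 for PDIA4, which were lower with TRAM2-KO1.

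In 4 of the 114 genes 1 of the 6 knockout libraries stood apart from the other 5 by Dixon's ratio, whose critical value for 6 libraries is 0.625. CNTRL had 13.49 CPM in TRAM2-KO2 C, below the others. KLF6 had 475.4 CPM in TRAM2-KO2 C and TUSC3 had 200.8 CPM in TRAM2-KO1 B, above the others. TGFBR3 had 37.05 CPM in TRAM2-KO1 C. Chance alone sets apart about 1 in 20 such groups, and the 6 libraries come from 2 guides.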

How the results depend on the processing

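TRAM2, P3H1 and FSTL1 kept their direction and their side of the threshold under all 19 alternatives, at -1.179 to -1.152, -0.489 to -0.435 and -0.229 to -0.207 when single libraries were left out. No named gene changed direction, while the medians of gene lists were not checked for direction. Of those medians under alternatives, 107 moved by at least the SD between controls and 349 moved less. Of the 55 called genes, 10 were called under all 19 alternatives (among them ALPP, COL4A1, COL4A2, PDIA4, POSTN, PSCA, PXDN, ROS1 and TRAM2), 35 under at least 16 and 10 under fewer than 10. Leaving out 1 library gave 47 to 104 called genes, 302 to 1153 genes at an adjusted p under 0.05, 1562 to 2163 without overlap and 14 to 41 called genes that differed between guides, with 104, 1153 and 41 coming without TRAM2-KO1 A. With no filter on low counts 129 genes were called, 982 had an adjusted p under 0.05 and 36 called genes differed between guides. The genes at an adjusted p under 0.05 numbered 336 with both guides as one group, 915 with the GC trend removed and 171 with transcript length offsets, where 10 called genes differed between guides. With TRAM2-KO1 by library A alone, chosen after seeing the data, 2279 genes did not overlap, with fewer libraries to separate. The cause of the other shifts was not tested.

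Letters did not pair the libraries: deviations of same-letter libraries correlated at -0.088 to 0.107. With a replicate block 57 genes were called, 48 of them among the 55, and 604 had an adjusted p under 0.05, or 905 when the GC trend was removed as well. Over the named genes, 1912 values under alternatives kept their side of the threshold, 218 no longer passed and 15 newly passed.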
